A study of Homo sapiens with 10 samples.

Results

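The peaks described here are the intervals of the deposited ANRIL peak list that lay in, or within 100 kb of, 3 genes put forward as distal targets of ANRIL: TPD52L1, IGFBP3 and FIRRE. A peak was assigned to a gene when its midpoint lay inside the gene's hg19 bounds or within 100 kb of either bound. By this rule 6 of the 3227 intervals were members, 1 at TPD52L1, 1 at IGFBP3 and 4 at FIRRE. The rule used position alone and no measured value of a peak. Members and settings were, however, chosen with earlier results of these data known, so counts of peaks at these genes are descriptions only.

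The series used ChIRP-seq (chromatin isolation by RNA purification), in which biotinylated oligos antisense to an RNA recover it from sonicated chromatin together with the DNA it lies on. All 10 samples came from HEK293, an established human embryonic kidney cell line. Oligos against ANRIL were used in 4 samples, with even and odd oligo pools applied separately in 2 replicates. Oligos against LacZ, a bacterial gene that human cells lack, were used in 4 samples of the same layout, and 2 further samples were input. Reads were paired, 43 bp long and at a stated depth of 45 M per sample, and the labels do not say whether the replicates were separate cultures. No treatment or genetic change is named for any sample, and all groups share the same line. The list analysed here is titled an intersection of the ANRIL peaks of both replicates, with both pools processed together and peaks called against LacZ. It gives 1 set of values per peak, and which replicate these come from is not stated. No spread between replicates can therefore be given for any peak, no LacZ or input level was analysed here, and no difference between conditions was tested.

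ANRIL is a long non-coding RNA transcribed antisense to the cell cycle inhibitor gene CDKN2B at 9p21, and it is known for its link to Polycomb complexes, which silence genes. It has also been described as acting on genes on other chromosomes, and peaks at such genes are what a ChIRP experiment can show. TPD52L1 encodes a coiled-coil protein of the tumour protein D52 family, which takes part in membrane traffic and cell proliferation. IGFBP3 encodes the main carrier of insulin-like growth factors in blood, and so limits their access to their receptor. FIRRE is itself a long non-coding RNA gene of the X chromosome, rich in repeats, whose RNA binds the nuclear matrix protein HNRNPU and is known for a part in chromosome contacts and in the chromatin state of the inactive X.

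TPD52L1 spans chr6:125440195-125584644 (hg19), a length of 144 kb on the plus strand. A single peak lay inside it, at chr6:125513942-125514488, 74.0 kb from the gene's 5′ end and 70.4 kb from its 3′ end, so about midway along the gene. Whether it overlaps an exon or an intron was not analysed here. The peak was 547 bp wide, with a deposited fold of 3.13. Fold is the ratio of signal recovered with ANRIL to what was expected locally, with peaks called against LacZ. The score of the peak was 16, where the score is 10 times −log10 q rounded down, and its q-value was 0.0217.

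This was the lowest score in the list, shared with 64 other peaks of chromosome 6. On that chromosome 383 of 448 peaks scored higher and 407 had a higher fold, while 108 were wider. The peak inside TPD52L1 thus stood at the bottom of its chromosome in score and near the bottom in fold. The chromosome's medians were a score of 20, a fold of 3.45 and a width of 362.5 bp.

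Much stronger peaks lay on both sides of the gene, outside the 100 kb window. On the 5′ side, the next peak was at chr6:124936936-124937572, 503 kb away, with a score of 78 and a fold of 5.81. No other peak of chromosome 6 had a higher score, and 1 had a higher fold. On the 3′ side, the next peak was at chr6:125803792-125804368, 219 kb away, with a score of 56 and a fold of 4.51, and 7 peaks of the chromosome scored higher. The nearest protein-coding genes on these sides, by their order in the RefSeq table of GRCh38, are RNF217 on the 5′ side and HDDC2 on the 3′ side. Neither peak was assigned to a gene.

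The window around TPD52L1 was 344 kb long and held 1 peak, or 2.90 per Mb, against 2.62 per Mb over chromosome 6 and 2.78 per Mb within 10 Mb of the gene. Of all windows of this length on chromosome 6, moved in steps of 1 kb, 57.7% held at least 1 peak. Within 10 Mb of the gene the share was 62.5%. No peak was held by 42.3% of the windows of chromosome 6, and exactly 1 peak by 35.4%. For the gene alone, without flanks, 31.1% of windows of its length held at least 1 peak. Windows overlap one another, so these shares are descriptions of the chromosome and not tests.

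IGFBP3 spans chr7:45951844-45961473 (hg19), a length of 9.63 kb on the minus strand. No peak lay inside it. Its only peak within 100 kb was at chr7:46014501-46014580, on the gene's 5′ side, 53.1 kb from its 5′ end. This peak had a score of 19, a fold of 3.60 and a q-value of 0.0122. It was 80 bp wide.

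In width this peak stood near the lower end of its chromosome. On chromosome 7, 3 of 101 peaks were narrower, and in the whole list 61 of 3227 were. The chromosome's median width was 287 bp, and its interquartile range was 234 to 354 bp. The title of the list names an intersection of replicates and blacklisted regions, either of which can shorten an interval, and their part in this width was not tested. The extent of the peak in each replicate was not analysed here. In score, 65 of the 101 peaks of chromosome 7 stood higher, and in fold 63 did, so both values lay a little below the chromosome's medians of 22 and 3.70.

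The peak near IGFBP3 stood alone, in a part of the chromosome whose density within 10 Mb of the gene, 0.600 peaks per Mb, was near the 0.635 per Mb of chromosome 7 as a whole. The next peak on the gene's 3′ side lay 1440 kb from it, at chr7:44512087-44512342, with a score of 29 and a fold of 4.02. Beyond the IGFBP3 peak on the 5′ side, the next was 4727 kb further, at chr7:50741125-50741508, also with a score of 29 and with a fold of 3.80. Of the 100 gaps between neighbouring peaks of chromosome 7, 4 were longer than this one, and 34 were longer than the gap of 1502 kb on the other side of the IGFBP3 peak. No other peak lay within 1 Mb of the gene on either side.

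The window around IGFBP3 was 210 kb long and held 1 peak, or 4.77 per Mb, against the 0.635 per Mb of chromosome 7. Of windows of this length, 11.9% held at least 1 peak over the chromosome and 11.7% within 10 Mb of the gene. A ratio of densities that rests on 1 peak has little precision. IGFBP1, which encodes a second carrier of the same growth factors, is the neighbouring gene on the 3′ side of IGFBP3 in the GRCh38 order. The first gene on the 5′ side, where the peak lay, is LOC102723446, which is annotated as a long non-coding RNA.

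FIRRE spans chrX:130836678-130964671 (hg19), a length of 128 kb on the minus strand, and was the gene with the most peaks. Of its 4 peaks, 2 lay inside the gene, 1 on its 5′ side and 1 on its 3′ side. Of the 6 peaks of all 3 genes, these included the highest score and the highest fold.

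The strongest was the peak on the 5′ side, at chrX:130981186-130981573, 16.7 kb from the 5′ end of FIRRE. It had a score of 41, a fold of 4.45, a width of 388 bp and a q-value of 6.33e-05. On chromosome X, 22 of 754 peaks scored higher and 12 had a higher fold. It was also the closest of the 6 peaks to the 5′ end of its gene.

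The peaks inside FIRRE formed a close pair. The first lay at chrX:130930478-130930958, 34.0 kb from the 5′ end, with a score of 23, a fold of 3.26, a width of 481 bp and a q-value of 0.00411. The other lay at chrX:130927168-130927488, 37.3 kb from the 5′ end, with a score of 22, a fold of 3.45, a width of 321 bp and a q-value of 0.00605. They were 3.39 kb apart from midpoint to midpoint, with 2989 bp between their edges. Of the 753 gaps between neighbouring peaks of chromosome X, 19 were shorter. Their scores were above the chromosome's median of 20, while the fold of 3.45 was above its median of 3.26 and the fold of 3.26 was equal to it as rounded. Whether they lie over exons, introns or the gene's repeats was not analysed here.

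The fourth peak lay 90.2 kb beyond the 3′ end, at chrX:130745935-130746987. It was the widest of the 6 at 1053 bp and had the lowest fold, 2.999, with a score of 20 and a q-value of 0.00956. On its chromosome 74 peaks were wider and 640 had a higher fold. It was also the member nearest to the 100 kb limit. The next peaks outside the limit lay 164 kb from the gene on the 3′ side (score 17, fold 2.96) and 262 kb from it on the 5′ side (score 28, fold 3.52).

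**Figure D1:**
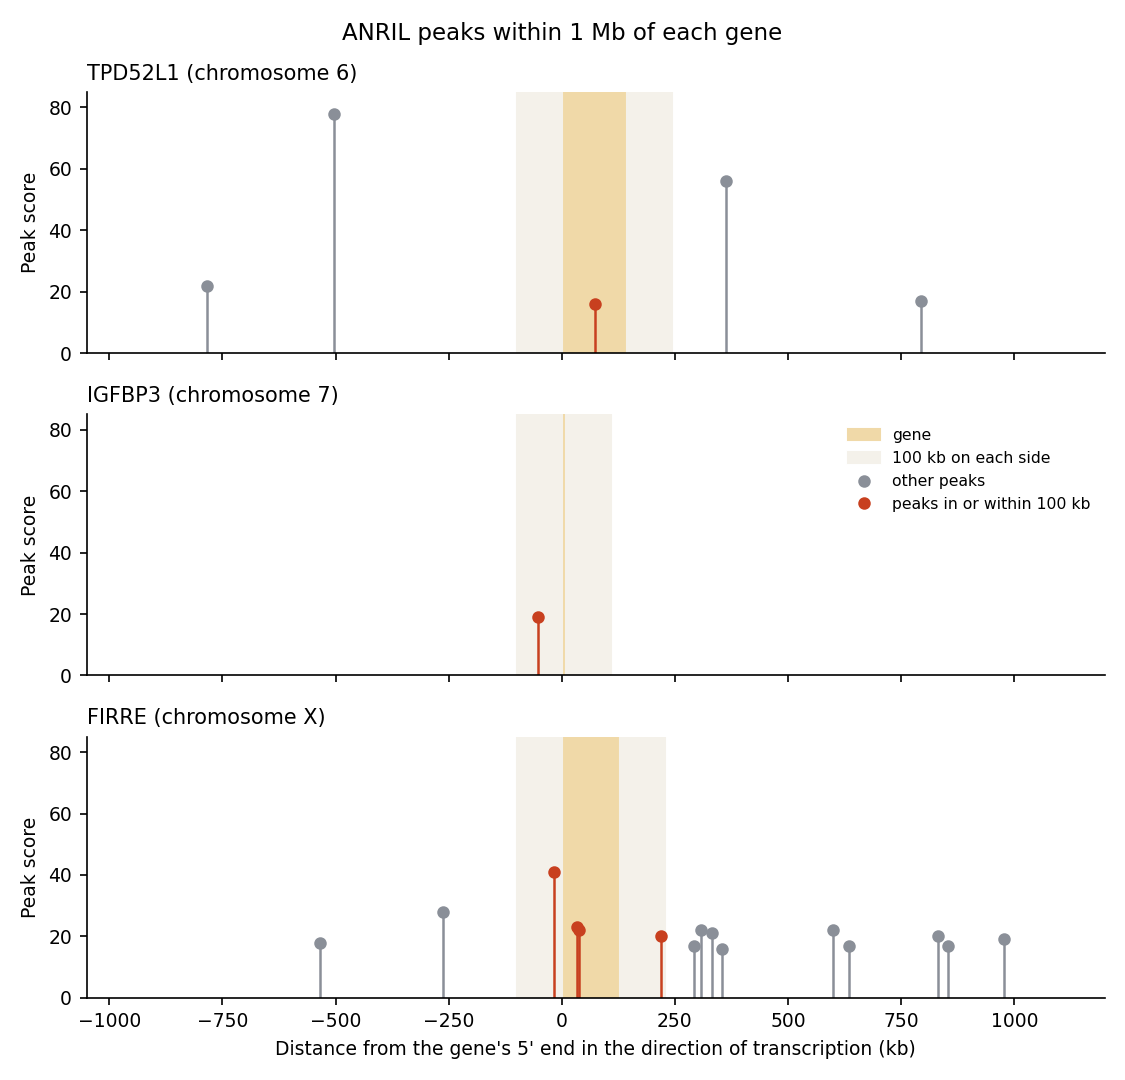
Peak score (vertical axis) against distance from the 5′ end of each gene in kb, in the direction of transcription (horizontal axis), for all peaks within 1 Mb of TPD52L1, IGFBP3 and FIRRE; the gene is shaded dark and 100 kb on each side light. The peak inside TPD52L1 (score 16) stands between peaks of 78 and 56, the IGFBP3 peak (score 19) stands alone, and the FIRRE peak on the 5′ side (score 41) is the highest of its 15.

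Within 1 Mb of FIRRE there were 15 peaks, 10 of them on its 3′ side and 3 on its 5′ side. Their scores ran from 16 to 41 and their folds from 2.91 to 4.45, and the highest of both belonged to the peak 16.7 kb from the 5′ end. Around TPD52L1 there were 5 peaks within 1 Mb, of which the one inside the gene had both the lowest score and the lowest fold. The other 3 FIRRE peaks, with scores of 20, 22 and 23, were among the neighbours in score, and the fold of the peak on the 3′ side, 2.999, was in the lower part of the 15.

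**Figure D2:**
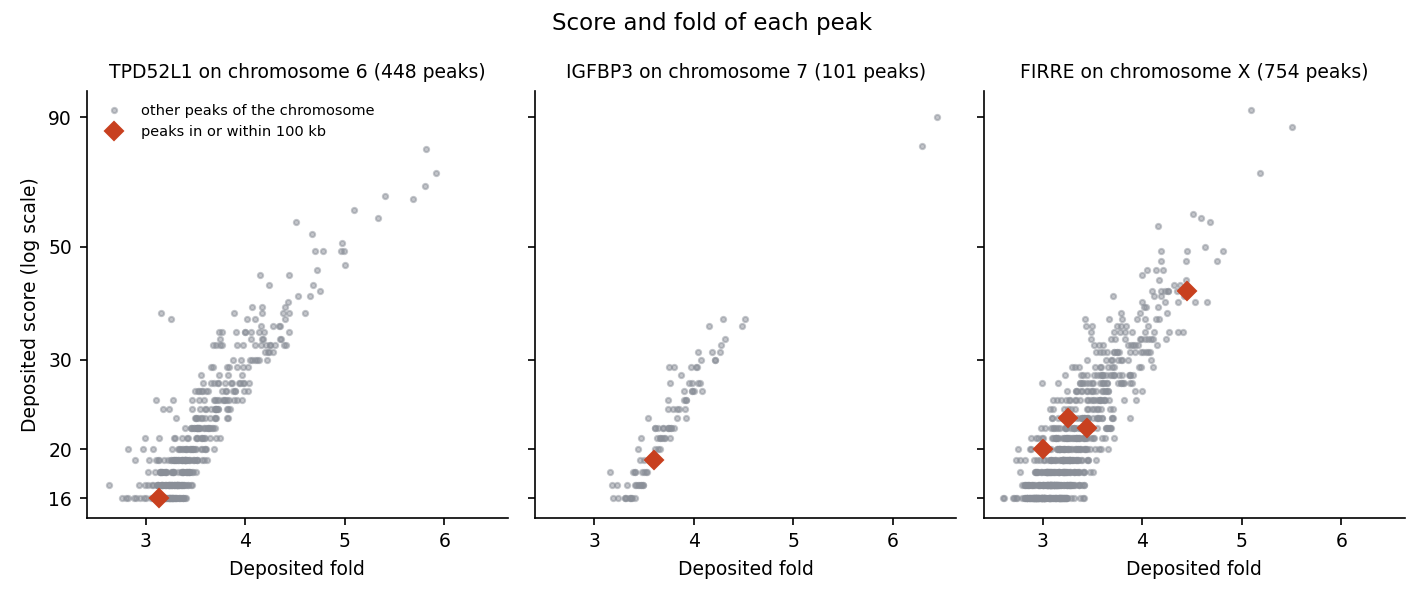
Deposited score (log scale) against deposited fold for every peak of chromosomes 6 (448 peaks), 7 (101 peaks) and X (754 peaks); diamonds are the peaks in or within 100 kb of the gene. The TPD52L1 peak lies on the lowest score, 16, the IGFBP3 peak in the lower part of its chromosome, and 1 of the 4 FIRRE peaks, at a score of 41 and a fold of 4.45, in the upper part.

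The window around FIRRE was 328 kb long and held 4 peaks, or 12.2 per Mb. Chromosome X, the most peak-rich of the 3 chromosomes, had 4.86 per Mb, and the part within 10 Mb of FIRRE had 6.46 per Mb. The window was therefore 2.51 times as dense as the chromosome and 1.89 times as dense as its own surroundings. Of windows of this length, 13.2% held at least 4 peaks over chromosome X and 15.2% within 10 Mb of FIRRE. Single windows of this chromosome held up to 9. For the gene alone, 14.6% of windows of its length held at least 2 peaks.

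**Figure D3:**
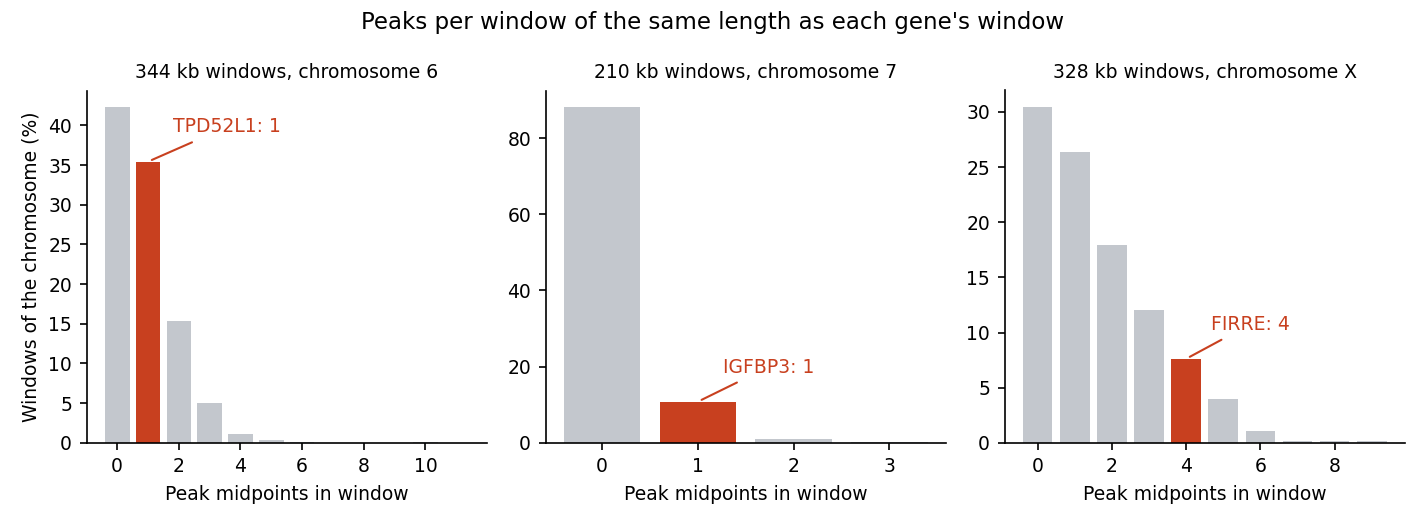
Share of all windows of a chromosome, in percent, by the number of peak midpoints they held, for windows as long as those around TPD52L1 (344 kb), IGFBP3 (210 kb) and FIRRE (328 kb); the bar of each gene's own count is coloured, and each panel has its own vertical scale. At least as many peaks as the gene's window were held by 57.7%, 11.9% and 13.2% of windows, respectively.

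The distance from each peak to its nearest other peak gave a further contrast among the genes. The TPD52L1 peak was 290 kb from the nearest, against a median of 141 kb over chromosome 6, and 87 of 448 peaks were more isolated. For the IGFBP3 peak the distance was 1502 kb against a median of 429 kb over chromosome 7, and 13 of 101 peaks were more isolated. The pair inside FIRRE lay well below the chromosome X median of 51.9 kb, while the other FIRRE peaks, at 50.7 and 74.2 kb, lay near it.

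**Figure D4:**
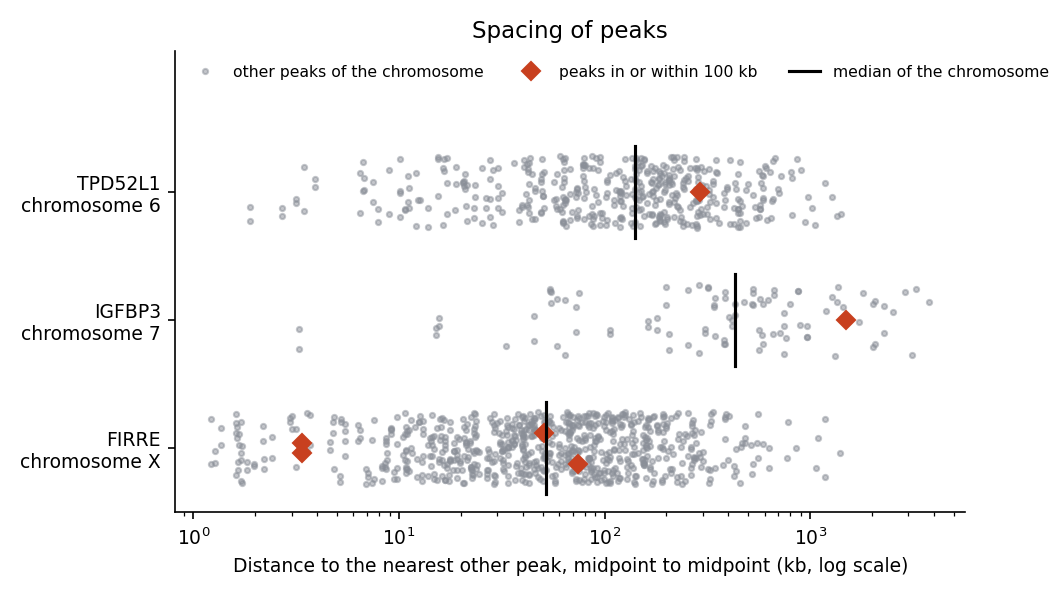
Distance from each peak to the nearest other peak of its chromosome in kb (horizontal axis, log scale) for chromosomes 6, 7 and X; diamonds are the peaks in or within 100 kb of the gene and the black line is the chromosome's median (points are spread vertically for legibility). The TPD52L1 and IGFBP3 peaks lie above their medians of 141 and 429 kb, and the pair inside FIRRE lies at 3.39 kb.

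The numbers in peak names run in genome order along each of these chromosomes, so the numbers missing between neighbours show how many more names had been given there before the list was filtered. Which replicate the names come from is not stated. Between the retained peaks on either side of the TPD52L1 window, 51 numbers fell within 867 kb, and 1 was retained (1.96%, against 5.64% over chromosome 6). Between those around IGFBP3, 79 numbers fell within 6229 kb, and 1 was retained (1.27%, against 4.37% over chromosome 7). Between those around FIRRE, 44 numbers fell within 554 kb, and 4 were retained (9.09%, against 7.93% over chromosome X). Numbers were given at 58.8, 12.7 and 79.4 per Mb in these stretches, against 46.6, 15.1 and 63.5 per Mb over chromosomes 6, 7 and X. Names were thus given above the chromosome's density in the stretches around TPD52L1 and FIRRE, and below it in the stretch around IGFBP3. These stretches reach beyond the genes and their windows. The stretches end at retained peaks that are left out of their counts, while the chromosome shares count every retained peak. Shares in the stretches are therefore lowered by construction, most of all around a gene with 1 peak. A lower share than that of the chromosome thus cannot be read as fewer names being kept at a gene. The shares rest on 1, 1 and 4 peaks and were not tested.

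The pair inside FIRRE carried consecutive numbers, 54775 and 54776, so no name lay between them. On chromosome X, 62 of 753 neighbouring pairs (8.23%) had consecutive numbers. Between that pair and the peak on the 5′ side, 6 numbers were missing, and between the pair and the peak on the 3′ side, 9. None of the 6 peaks shared its name with another interval of the list.

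Of the 6 peaks, 4 were at FIRRE, so medians over all 6 mostly describe that gene. The median score of the 6 was 21, equal to that of the whole list, and their median fold was 3.35 against 3.48. Of the 6, 3 scored above the median of their chromosome and 2 had a fold above it, all of them FIRRE peaks. The TPD52L1 and IGFBP3 peaks lay below the medians of their chromosomes in both score and fold. A q-value above 0.01 was held by 2 of the 6, those at TPD52L1 and IGFBP3, and by 1373 of the 3227 in the list. The surroundings of the ANRIL gene were taken as within 200 kb of position 22 Mb of chromosome 9, from general knowledge of its place. Whether a peak there lay inside ANRIL was not analysed here. The 6 peaks of this region had scores from 18 to 37 and folds from 3.47 to 4.48. The FIRRE peak on the 5′ side had a higher score than any of these and a fold just under their highest, the other FIRRE peaks and the IGFBP3 peak scored within their range, and the TPD52L1 peak scored below it. In fold, the IGFBP3 peak lay within the range of this region. The other 3 FIRRE peaks, at 2.999, 3.26 and 3.45, and the TPD52L1 peak, at 3.13, lay below that range.

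No peak of the list overlapped the 5′ end of any of the 3 genes, and the nearest lay 53.1 kb away at IGFBP3, 74.0 kb away at TPD52L1 and 16.7 kb away at FIRRE. Distances depend on the gene model. In the RefSeq table of GRCh38, TPD52L1 is 111 kb long, 33.8 kb shorter than the bounds used here, and its peak lay further than that from both bounds. FIRRE is 139 kb long there, 11.1 kb longer than the bounds used, which is less than the 16.7 kb between the bound and the peak on the 5′ side.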

How the data were processed

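One deposited file was analysed, the authors' list of ANRIL peaks. Per the submitters' processing notes, Bowtie2, MACS2, bedtools and deepTools were used with the build hg19. Their versions and settings are not given in the sources at hand. Per the labels' design text, even and odd samples were processed together. The list's title names an intersection of both replicates, a score filter of 15 and blacklisted regions. The deposited score equals 10 times −log10 q rounded down for each of the 3227 intervals, with a minimum of 16. The deposited fold (a ratio) and −log10 q were identified from the values and the column order of MACS2. All are the authors' own per-peak values and served only to describe and rank peaks. Depth at a peak is unknown.

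Gene bounds in hg19 came with the definition of the 3 genes, and strand and neighbours came from RefSeq tables of GRCh38, whose coordinates were not used. Peak midpoints were counted in windows of the gene plus 100 kb on each side, and in all windows of that length in steps of 1 kb along the full hg19 chromosome, gaps included. The named genes were the 3 of the rule, with the next peak on each side. Genes of the same families were to be added given hg19 annotation, and were not analysed here. Members and settings were chosen with earlier results of these data known. No test was made, since the list holds no value per sample. In simulated chromosomes, counts were recovered in 20 of 20. Alternatives were other windows, a stricter score, edges for midpoints, peak names for intervals, local surroundings and rank by fold. No hg19 sequence was used. Computation was done in Python 3.11.15 with pandas 2.3.3 and numpy 2.4.6, intervals in scipy 1.17.1 and plots in matplotlib 3.10.9.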

Additional observations from a re-analysis of the deposited data

How the results depend on the processing

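Of 41 recomputed values, 29 stayed near the reported one (within 1.5 times for counts and window shares, the same nearest peak for distances, the exact 95% interval for ranks) and 12 moved. The settings without flanks were chosen after seeing the data. Keeping only scores at or above the list's median of 21 left 0 peaks for TPD52L1 and 0 for IGFBP3, by construction, and put their nearest peaks at 219 and 1440 kb. FIRRE kept 3, and 6.15% of windows then held as many. With 50 kb on each side IGFBP3 had 0 peaks. With 200 kb, 21.8% of windows on chromosome 7 held at least 1. Without flanks IGFBP3 had 0 peaks and FIRRE 2, and 31.1% of windows as long as TPD52L1 held at least 1. Ranked by fold, 90.8% of the peaks of chromosome 6 stood above the best of TPD52L1 and 1.59% of those of chromosome X above the best of FIRRE, against 85.5% and 2.92% by score; the cause was not tested. Window shares have no value where a gene keeps no peak. Leaving out a replicate could not be done. No paired analysis was possible because replicates 1 and 2 were merged into single values before deposit. A gene with few peaks cannot be told apart from a gene where few could be detected.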
